A study of Mus musculus with 14 samples.

Results

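Fam13a, Acsm3, Dennd2d, Adgrg2, Rnf144b, Tst, Slc43a1 and St6galnac5 are 8 genes whose level in the epididymal fat pad lay lower in wild type (WT) mice on Western diet than on normal diet. They were taken as the array rows whose only gene symbol is one of these 8 names, the row with the highest mean being kept where a gene has several. All 8 were found, each with 1 probe set, among 19937 genes. They had been picked for their diet difference in WT mice, so every value that rests on the WT arrays is a description without a test. The choice used the WT diet difference, and the diet difference in EKO was tested. The EKO value of Rnf144b was already known when the genes were chosen, so its test is not independent evidence.

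The epididymal fat pad is a visceral white fat depot of male mice. Its total RNA was measured on 14 arrays, 1 per animal, from male C57BL6/J mice that were WT or carried EKO, the genotype that the labels tie to apolipoprotein E. In each genotype mice ate a normal diet or, in the groups named HFD, a Western diet with 42% milk fat, starting at an age of 8 weeks and lasting 24 weeks. Each of the WT groups has 3 arrays and each of the EKO groups has 4, called biological replicates in the labels. All levels below are log2 values, on which a difference of 1 is a 2-fold change. Levels of different genes come from different probes and are not compared with each other.

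White adipocytes take up fatty acids and glucose, store them as triglyceride and release them again, and they burn branched-chain amino acids and fatty acids in their mitochondria. In overfed mice the pad also fills with macrophages. The 8 genes belong to different systems of the cell. Acsm3 encodes a mitochondrial enzyme that joins medium-chain fatty acids to coenzyme A, and Tst encodes thiosulfate sulfurtransferase (rhodanese), a mitochondrial enzyme that handles sulfide and cyanide and has been linked to leanness in mice. Fam13a is a locus that human genetics ties to fat distribution and insulin, and Dennd2d encodes a DENN domain protein, a class that switches on Rab GTPases in membrane traffic. Adgrg2 encodes an adhesion G protein-coupled receptor best known from the epididymis, and Rnf144b a RING-between-RING (RBR) ubiquitin ligase that p53 induces. Slc43a1 encodes LAT3, a transporter of large neutral amino acids, and St6galnac5 a sialyltransferase that builds gangliosides.

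The DNA just upstream of the start is shown for the 4 genes whose measured WT difference was more than 2 on the log2 scale, because genes that move together raise the question of what their start regions share. Sequences are from RefSeq on GRCm38.p6, which was used for sequences, names and neighbours only, and 6 of the 8 genes were matched (Tst and St6galnac5 were not). Fam13a lies at chr6:59024503-59024752 on the minus strand, Acsm3 at chr7:119760673-119760922 on the plus strand and Adgrg2 at chrX:160390440-160390689 on the plus strand, each as the 250 bases before its only listed start. For Dennd2d, which has 3 listed starts, the stretch at chr3:106485914-106486039 on the plus strand is shown, the 126 bases between the third of them and the start of the oppositely oriented gene 2010016I18Rik. Each is written 5′ to 3′ on the strand of its gene. Capitals mark matches to any of 5 motifs searched on both strands. They were the nuclear receptor half-site AGGTCA, the E-box CACGTG, the forkhead site GTAAACA, the TATA box in the form TATAAA, and the GC box in the form GGGCGG.
Fam13a: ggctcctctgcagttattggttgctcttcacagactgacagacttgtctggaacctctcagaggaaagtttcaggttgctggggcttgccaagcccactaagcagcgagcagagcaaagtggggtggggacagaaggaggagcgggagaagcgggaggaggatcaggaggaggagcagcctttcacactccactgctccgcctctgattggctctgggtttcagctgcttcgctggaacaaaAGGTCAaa
Acsm3: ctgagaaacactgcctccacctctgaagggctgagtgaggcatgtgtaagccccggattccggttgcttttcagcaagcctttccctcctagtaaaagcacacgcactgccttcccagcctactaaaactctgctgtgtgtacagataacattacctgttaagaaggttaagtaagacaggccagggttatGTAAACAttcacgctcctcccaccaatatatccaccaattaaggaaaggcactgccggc
Dennd2d: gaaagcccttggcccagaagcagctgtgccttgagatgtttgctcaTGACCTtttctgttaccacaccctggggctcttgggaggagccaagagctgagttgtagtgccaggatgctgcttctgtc
Adgrg2: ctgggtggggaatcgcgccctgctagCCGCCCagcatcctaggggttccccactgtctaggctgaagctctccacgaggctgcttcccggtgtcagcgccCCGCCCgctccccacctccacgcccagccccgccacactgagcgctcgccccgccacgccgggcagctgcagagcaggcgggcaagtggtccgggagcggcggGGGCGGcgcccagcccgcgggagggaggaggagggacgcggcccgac

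AGGTCA was found in the window of Fam13a and in 1 of the 3 windows of Dennd2d. In Fam13a it begins 8 bases before the start. In Dennd2d it is on the reverse strand (TGACCT) and begins 80 bases before the third start. It is present in 14.02% of all 32851 windows of 250 bases, a share per window, so 2 genes with it is a description only. GTAAACA was found in Acsm3, 59 bases before the start, and in 3.17% of all windows. The Adgrg2 window is rich in G and C (75.6%, against a median of 52.4% over all windows) and holds 3 GC boxes, a motif in 32.7% of windows. The Slc43a1 window, also GC-rich at 70.8%, holds the E-box, found in 6.02% of windows, together with TATA and GC boxes. GC content was 56.0% for Fam13a and 49.2% for Acsm3. The GC box was the most widely shared motif, in 4 of the 6 matched genes. These were Adgrg2, Slc43a1, Rnf144b (1 of 2 starts) and Dennd2d (1 match that the overlapping windows of 2 of its 3 starts share, not the start shown). The TATA box, found in 12.4% of windows, was present for Rnf144b and Slc43a1. It begins 178 bases before 1 of the 2 starts of Rnf144b, and 216 and 201 bases before the start of Slc43a1.

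In WT mice all 8 genes were lower on Western diet in every array. For each gene the 3 arrays on normal diet all lay above the 3 arrays on Western diet, which was the case for 11.3% of all genes tested. Since the genes were chosen on this contrast, nothing is read from that share, nor from the 5.49% of all genes that passed in this contrast or the 2.3% that passed as lower (limma, adjusted p under 0.05). As measured, the differences ran from 2.34-fold for St6galnac5 to 6.03-fold for Fam13a. Those of Acsm3, Dennd2d and St6galnac5 may be understated because their Western diet levels lay near background, so the genes are not ranked. Choosing the genes for this difference may in turn overstate it for all 8. WT mice on Western diet were the lowest of the 4 groups for each of the 8 genes. In bulk tissue, fewer cells of a type and less RNA per cell cannot be told apart.

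**Figure D1:**
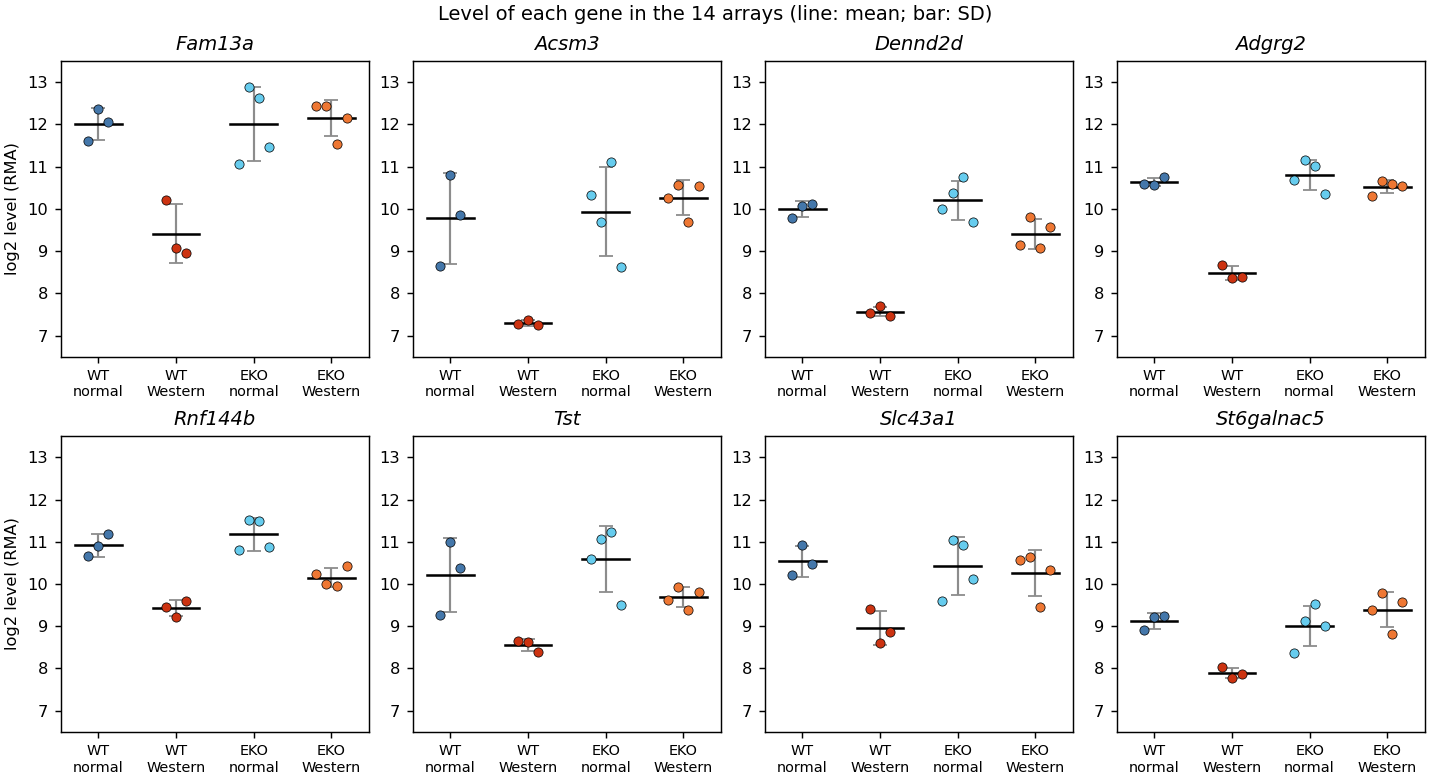
Level of each of the 8 genes (y axis, log2) in the 14 arrays, by group (x axis): points are arrays, the line is the group mean and the bar is the SD (n = 3 in each WT group, 4 in each EKO group). In all 8 panels the WT arrays on Western diet are the lowest group and do not overlap the WT arrays on normal diet or the EKO arrays on Western diet.

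Among the mitochondrial enzymes, Acsm3 (probe set 10556769) had levels of 8.66, 10.81 and 9.86 in WT on normal diet and 7.27, 7.37 and 7.24 in WT on Western diet. The normal diet arrays were spread over a wide range, the Western diet arrays were close together, and the groups did not overlap. Its group means were 9.78 ± 1.08 and 7.29 ± 0.068 (SD, n = 3 each), a difference of -2.48 ± 0.54 (SE). In EKO the levels were 10.32, 9.69, 11.10 and 8.62 on normal diet and 10.26, 10.58, 9.69 and 10.54 on Western diet. These groups overlapped, and the highest single level was an EKO array on normal diet. The level of Acsm3 in WT on Western diet exceeded that of only 65.6% to 88.5% of 1190 olfactory and vomeronasal receptor genes on the same arrays, a set taken as background, so its WT difference may be understated.

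Tst (probe set 10430319) had levels of 9.26, 10.99 and 10.39 in WT on normal diet and 8.65, 8.63 and 8.39 on Western diet. The groups did not overlap, although the lowest normal diet array came near the Western diet arrays. The WT difference was -1.65 ± 0.41 (SE). In EKO Tst was at 10.59, 11.07, 11.23 and 9.49 on normal diet and 9.62, 9.93, 9.38 and 9.80 on Western diet. On normal diet 3 of the 4 arrays lay above all Western diet arrays, and the remaining array fell among them. Acsm3 and Tst thus shared their low arrays, replicate 1 of WT on normal diet and replicate 4 of EKO on normal diet.

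Fam13a (probe set 10545045) had levels of 11.60, 12.36 and 12.07 in WT on normal diet and 10.21, 9.08 and 8.95 on Western diet. One Western diet array stood above the other two, and even it was below every normal diet array. The difference was -2.59 ± 0.44 (SE). In EKO the levels were 11.07, 12.88, 12.62 and 11.48 on normal diet and 12.43, 12.44, 11.54 and 12.16 on Western diet. All 4 Western diet arrays fell within the range of the normal diet arrays, and their means were 12.01 ± 0.87 and 12.14 ± 0.42 (SD, n = 4 each).

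Dennd2d (probe set 10495147) varied less between arrays than Fam13a in each of the 4 groups. Its levels were 9.79, 10.08 and 10.13 in WT on normal diet and 7.54, 7.69 and 7.47 on Western diet, groups far apart relative to their spread. The WT difference was -2.43 ± 0.24 (SE). In EKO it was at 10.01, 10.37, 10.76 and 9.69 on normal diet and 9.15, 9.82, 9.06 and 9.58 on Western diet. Here the groups overlapped by 1 array in each diet, with the Western diet mean below the normal diet mean. In WT on Western diet it exceeded 74.7% to 94.2% of the background genes, so its WT difference may be understated too.

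Adgrg2 (probe set 10602896) had the smallest SD of the 8 genes in 3 of the 4 groups. Its levels were 10.58, 10.56 and 10.75 in WT on normal diet and 8.68, 8.37 and 8.40 on Western diet, with a WT difference of -2.15 ± 0.17 (SE). The groups were tight and far apart. In EKO the levels were 10.68, 11.16, 11.02 and 10.36 on normal diet and 10.31, 10.66, 10.58 and 10.54 on Western diet. The EKO groups overlapped, and both lay around the level of WT on normal diet. Adgrg2 is a receptor of the epididymis, which adjoins this fat pad, so markers of that organ were examined. None of 17 measured epididymis markers passed in any diet contrast, and their mean level was 6.54 to 6.89 on every array, about the array background of 6.30 to 6.84.

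Rnf144b (probe set 10404965) was the one gene whose EKO groups did not overlap. Its levels were 10.65, 10.90 and 11.19 in WT on normal diet and 9.46, 9.21 and 9.59 on Western diet, a difference of -1.49 ± 0.20 (SE). In EKO they were 10.81, 11.51, 11.49 and 10.88 on normal diet and 10.24, 10.003, 9.94 and 10.42 on Western diet. Every EKO array on Western diet lay below every normal diet array of either genotype, and above every WT array on Western diet.

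Slc43a1 (probe set 10473367) had levels of 10.21, 10.93 and 10.47 in WT on normal diet and 9.40, 8.61 and 8.87 on Western diet, a difference of -1.58 ± 0.37 (SE). The groups did not overlap. In EKO it was at 9.59, 11.03, 10.93 and 10.12 on normal diet and 10.56, 10.65, 9.46 and 10.33 on Western diet. On normal diet 2 arrays were high and 2 were lower, on Western diet 1 array was below the other 3, and the groups overlapped over most of their range.

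St6galnac5 (probe set 10502881) had a WT difference of -1.23 ± 0.26 (SE). Its levels were 8.90, 9.23 and 9.23 in WT on normal diet and 8.02, 7.78 and 7.87 on Western diet, with little spread in either group. In EKO they were 8.36, 9.13, 9.53 and 8.99 on normal diet and 9.38, 9.78, 8.82 and 9.56 on Western diet. These groups overlapped, with the Western diet mean the higher. In WT on Western diet St6galnac5 exceeded 88.7% to 95.2% of the background genes, so its WT difference may be understated.

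None of the 8 genes passed the test for diet in EKO mice. The limma fit called 0% of all 19937 genes in that contrast, its smallest adjusted p over all genes being 0.112, while 883 genes had an unadjusted p under 0.05. Of the 8 genes, 3 had an unadjusted p under 0.05, beside those 883 of 19937, and 5 had a difference below 0. Over all genes the median difference in EKO was 0.0067. Among the 3 is Rnf144b, whose EKO value was known at the choice, so nothing is read from these counts. Rnf144b differed by -1.02 ± 0.18 (SE; 95% interval -1.40 to -0.65; limma adjusted p = 0.323). All 4 Western diet arrays were below all 4 normal diet arrays, which was the case for 1.59% of all genes. Nothing is read from that share, as the EKO value of Rnf144b was known when the genes were chosen. Dennd2d differed by -0.81 ± 0.21 (interval -1.24 to -0.37, adjusted p = 0.631), and Tst by -0.91 ± 0.36 (interval -1.68 to -0.15, adjusted p = 0.946). For these 3 genes the unadjusted intervals lay below 0, and the adjusted values missed the threshold.

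For the other 5 genes the EKO interval included 0. Fam13a differed by 0.13 ± 0.38 (interval -0.68 to 0.95, adjusted p = 0.973) and Acsm3 by 0.33 ± 0.47 (interval -0.66 to 1.33, adjusted p = 0.948). The sign of both rested on single arrays, as it turned without replicate 4 of EKO on normal diet (-0.046 for Fam13a and -0.10 for Acsm3). For Slc43a1 the difference was -0.17 ± 0.32 (interval -0.85 to 0.52, adjusted p = 0.956), and it also turned sign when single arrays were left out. Adgrg2 differed by -0.28 ± 0.15 (interval -0.60 to 0.034, adjusted p = 0.946) and St6galnac5 by 0.38 ± 0.22 (interval -0.090 to 0.86, adjusted p = 0.946). A missed threshold does not show that diet left these levels alone.

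**Figure D2:**
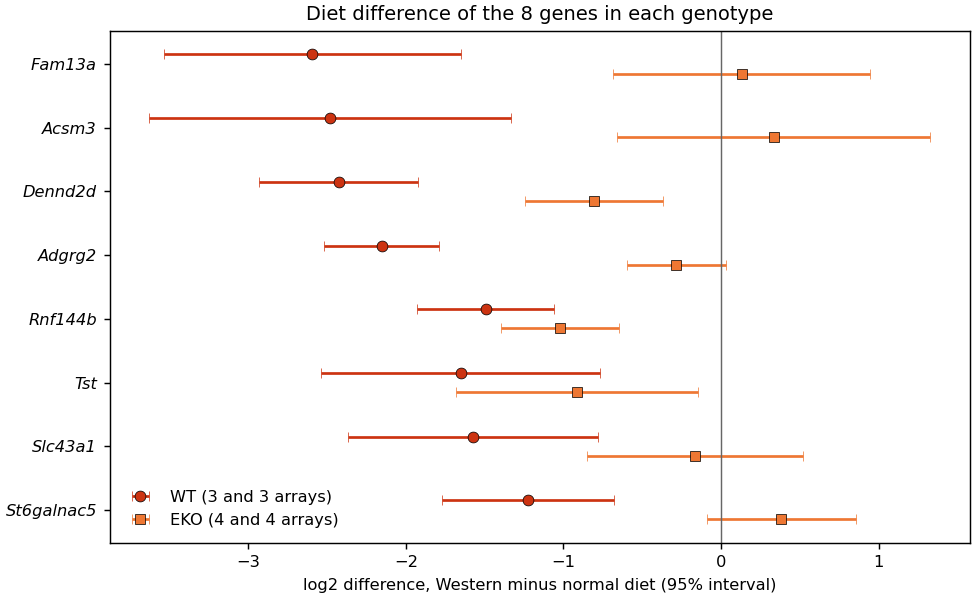
Western minus normal diet difference (x axis, log2) of the 8 genes (y axis) in WT (circles, 3 and 3 arrays) and EKO (squares, 4 and 4 arrays), with the 95% interval of the fit as bars. In WT the differences run from -2.59 for Fam13a to -1.23 for St6galnac5, and in EKO from -1.02 for Rnf144b to 0.38 for St6galnac5, with the intervals of Rnf144b, Dennd2d and Tst below 0.

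The genotypes were also set beside each other on each diet. On normal diet the EKO and WT arrays overlapped for all 8 genes, as they did for 98.3% of all genes, and EKO minus WT differences ran from -0.12 ± 0.35 (SE) for Slc43a1 to 0.39 ± 0.39 for Tst. On Western diet every EKO array lay above every WT array for all 8 genes, against 7.93% of all genes. The EKO minus WT difference on Western diet was 2.97 ± 0.50 for Acsm3, 2.73 ± 0.41 for Fam13a and 2.04 ± 0.16 for Adgrg2. Smaller values were found for Dennd2d (1.83 ± 0.22), St6galnac5 (1.495 ± 0.24), Slc43a1 (1.29 ± 0.35), Tst (1.12 ± 0.39) and Rnf144b (0.73 ± 0.19). All of these differences use the WT Western diet arrays on which the genes were chosen, so they carry no test. That choice may overstate them. Signal near background on the same arrays may in turn understate those of Acsm3, Dennd2d and St6galnac5, and their differences between diet effects.

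The order of the groups was read from the levels. WT on Western diet came last for all 8 genes, and the group just above it did not overlap it. Overlap by itself does not show equal levels, and the EKO intervals of Dennd2d and Tst given above lay below 0. Neighbouring groups higher in the order overlapped for 7 of the 8 genes. For these no order is read among EKO on either diet and WT on normal diet. Rnf144b was the exception, with EKO on Western diet (10.15 ± 0.22, SD, n = 4) in a place of its own between WT on normal diet (10.91 ± 0.27, n = 3) and WT on Western diet (9.42 ± 0.19, n = 3). The difference between the diet effects of the genotypes, EKO minus WT, was 2.82 ± 0.71 (SE) for Acsm3 and 2.73 ± 0.58 for Fam13a. It was 0.74 ± 0.55 for Tst and 0.47 ± 0.27 for Rnf144b.

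Apoe, the gene of the EKO genotype, was between 13.13 and 13.65 in all WT arrays and between 9.46 and 10.26 in all EKO arrays. Array medians were 7.92 to 8.10, and arrays of one group correlated at 0.976 to 0.995. The background genes were brighter on 5 arrays (6.75 to 6.84) than on the other 9 (6.30 to 6.57), and each group held arrays of both kinds. Markers of other cells also moved with diet in WT. Of 15 macrophage markers 10 rose, Itgax with the smallest p, and their mean level was 9.57 to 9.84 in WT on normal diet, 10.62 to 11.12 in WT on Western diet, 9.22 to 10.15 in EKO on normal diet and 9.68 to 10.02 in EKO on Western diet. Of 13 mesothelium markers, which line the pad, 11 fell, and their mean level was 9.95 to 10.46, 9.17 to 9.29, 9.41 to 9.97 and 9.67 to 9.94 in the same groups. Of 17 adipocyte markers 4 fell (Adipoq, Retn, Slc2a4 and Acvr1c), with a mean level of 12.47 to 12.58 in WT on normal diet and 12.35 to 12.43 on Western diet. None of these markers passed for diet in EKO. Their part in the values of the 8 genes was not tested.

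The relatives and pathway partners of the 8 genes were then examined, as 12 lists with 170 of 182 genes measured and the 8 genes left out. For diet in WT 12 of the 170 rose (7.06%) and 8 fell (4.71%), beside 3.19% and 2.3% of all genes. In EKO none passed, and 1 passed for the interaction, beside 0.482% of all genes. The median difference of each list in WT lay between -0.13 and 0.34, with -0.020 over all genes. The 8 genes were picked for their WT difference, so it is not set against that of their relatives. Without replicate 2 or 3 of WT on normal diet 4 and 7 of them rose and 5 and 4 fell, and without replicate 2 or 3 of WT on Western diet 5 and 3 rose and 5 fell in either case. The interaction count was 8 without replicate 1 of WT on Western diet, 3 without replicate 2 of EKO on normal diet, and 0 without any one of the 7 arrays named below for Sqor. Calls for diet in WT described below as lost were lost without replicate 2 or 3 of a WT group, or with the 2 groups fitted alone. Acsf2, Rab27b, Dennd1c, Slc7a7 and Ccng1 lost theirs under further settings too.

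**Figure D3:**
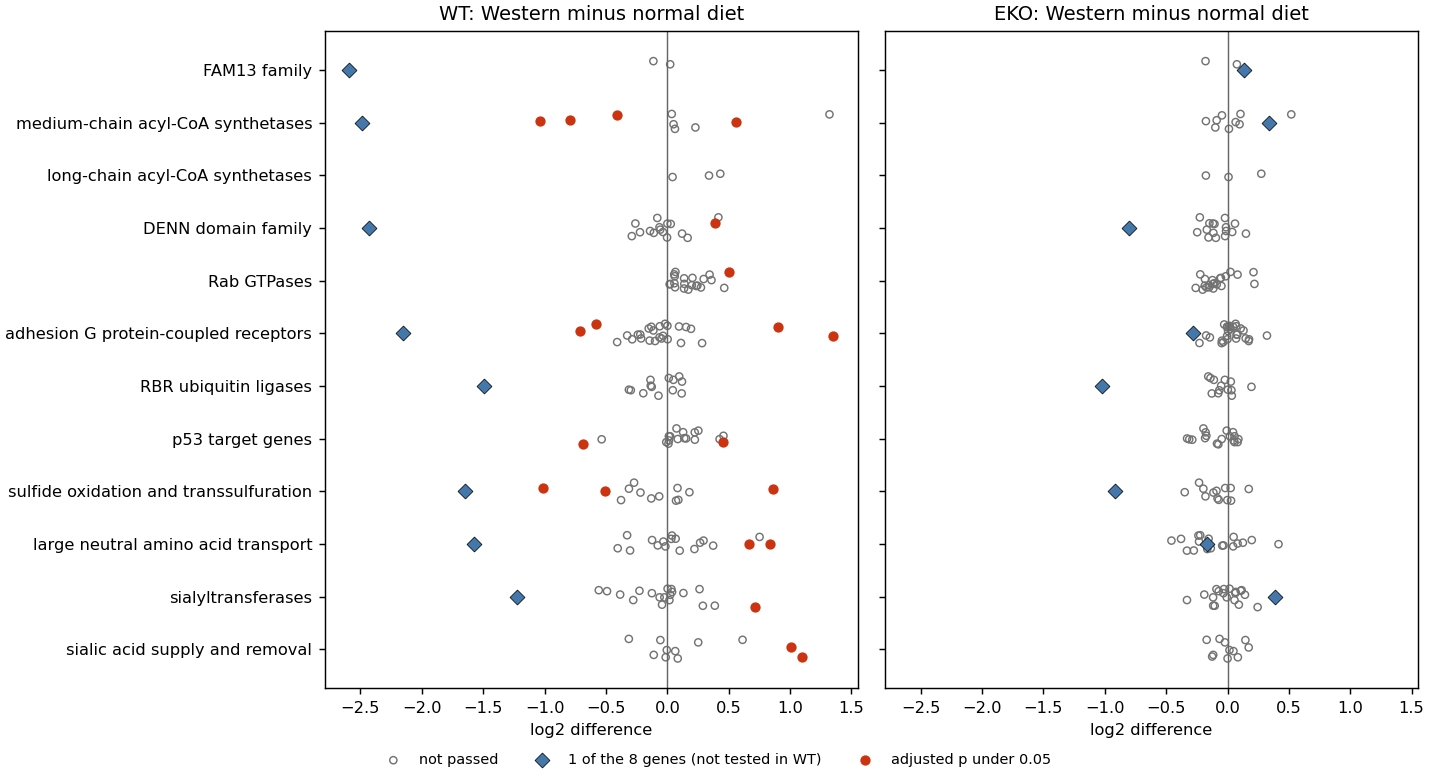
Western minus normal diet difference (x axis, log2) of the genes of 12 lists (y axis) in WT (left) and EKO (right). Circles are list genes, filled where the adjusted p was under 0.05, and diamonds are the 8 genes, placed in their own list. In WT the diamonds, picked for this difference, lie at -1.23 or below, and in EKO no circle is filled.

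Relatives of the enzymes moved in both directions. Of 9 other medium-chain and related acyl-CoA synthetase genes 3 fell and 1 rose in WT. Acsm5, which like Acsm3 acts on medium-chain fatty acids, fell by 1.04 ± 0.23 on the log2 scale (adjusted p = 0.0149), and Acss3, a mitochondrial synthetase of short-chain substrates, fell by 0.80 ± 0.15 (adjusted p = 0.00735). Acsf2 rose by 0.56 ± 0.14 (adjusted p = 0.029). In EKO their differences were -0.18, -0.089 and 0.066, with adjusted p of 0.946 or more. The calls of Acsm5 and Acsf2 were lost under 4 and 6 of 23 alternatives (adjusted p up to 0.0909 and 0.139), and that of Acss3 under none of them. None of 3 long-chain synthetases passed. Acsl5, the one with the smallest p, differed by 0.43 ± 0.13 (adjusted p = 0.0616) and passed under 4 of 23 alternatives (adjusted p down to 0.0135).

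In the sulfide and transsulfuration list, to which Tst belongs, 2 of 13 other genes fell and 1 rose in WT. Sqor, the mitochondrial quinone oxidoreductase that begins sulfide oxidation, had levels of 11.30, 11.82 and 11.66 in WT on normal diet and 10.47, 10.73 and 10.55 on Western diet, groups that did not overlap. It fell by 1.01 ± 0.14 (adjusted p = 0.000821), a call kept under all 23 alternatives. In EKO it was at 11.52, 11.54, 11.77 and 11.48 on normal diet and 11.42, 11.77, 11.43 and 11.61 on Western diet, which overlapped, with a difference of -0.019 ± 0.12 (adjusted p = 0.986). The difference between the diet effects was itself tested and was 0.99 ± 0.18 (adjusted p = 0.0262). That call was lost in 7 of 22 alternatives, with an adjusted p of up to 0.0899. These left out replicate 2 or 3 of WT on normal diet, replicate 3 of WT on Western diet, replicate 1 or 4 of EKO on normal diet, or replicate 2 or 4 of EKO on Western diet. Suox, sulfite oxidase, fell by 0.51 ± 0.10 (adjusted p = 0.00849, lost under 1 alternative). Tstd3, a gene with a rhodanese domain like that of Tst, rose by 0.86 ± 0.19 (adjusted p = 0.018, lost under 5). Mpst, which encodes the sister enzyme of Tst and lies next to it, differed by -0.31 ± 0.18 (adjusted p = 0.426).

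Of the genes close to Fam13a and Dennd2d in function 2 passed in WT, beside 5.49% of all genes. Neither other FAM13 gene passed in WT, and Fam13b differed by -0.11 ± 0.17 (adjusted p = 0.897). Of 16 other DENN domain genes 1 rose, Dennd1c, by 0.39 ± 0.098 (adjusted p = 0.0318). Of 21 Rab GTPases, the switches that DENN proteins act on, 1 rose, the secretory Rab27b, by 0.50 ± 0.12 (adjusted p = 0.0266). Both calls were lost under some settings, 8 and 5 of the 23, with adjusted p up to 0.144 and 0.131. Dennd1c lost it without any one of the 6 WT arrays. None of the 21 Rab GTPases had a WT difference below 0, and their median was 0.17, with -0.020 over all genes. In EKO their median was -0.12, with 0.0067 over all genes. Whether this list moved as a set was not tested.

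Among 27 other adhesion receptor genes 2 rose and 2 fell in WT. Adgre1, the macrophage marker F4/80, rose by 1.35 ± 0.26 (adjusted p = 0.00746), and Adgre4, another receptor of myeloid cells, rose by 0.90 ± 0.19 (adjusted p = 0.0132). Celsr2, a cadherin of planar cell polarity, fell by 0.58 ± 0.10 (adjusted p = 0.00485). Their EKO differences were 0.32, 0.045 and -0.027. The Adgre1 and Adgre4 values stand beside the macrophage markers given above, whose list holds Adgre1. Without replicate 3 of WT on Western diet Adgre1 had an adjusted p of 0.0504, and Adgre4 reached 0.0652 without single arrays.

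Among 13 other RBR ubiquitin ligases none passed in WT, with Cul9 nearest (-0.30 ± 0.099, adjusted p = 0.105). Of the 18 measured p53 targets 1 fell and 1 rose in WT. The difference was below 0 for 3 of the 18, and the list median was 0.11, with -0.020 over all genes. Perp, a junction protein, fell by 0.69 ± 0.13 (adjusted p = 0.0054) and Ccng1, cyclin G1, rose by 0.45 ± 0.12 (adjusted p = 0.0346, lost under 6 of 23 alternatives). The call of Perp was lost when the 2 WT groups were fitted alone (adjusted p = 0.0588).

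Of 18 other amino acid transport genes 2 rose in WT, beside 3.19% of all genes, and none fell. The difference in WT was below 0 for 7 of the 18. Slc36a2, a proton-coupled carrier of small amino acids, rose by 0.84 ± 0.14 (adjusted p = 0.00343). Slc7a7, a subunit of a cationic and neutral amino acid exchanger, rose by 0.66 ± 0.15 (adjusted p = 0.0216, lost under 5 of 23 alternatives). Slc36a2 differed by 0.42 in EKO (adjusted p = 0.766). Of 19 other sialyltransferases 1 rose, St8sia4, which makes polysialic acid, by 0.71 ± 0.15 (adjusted p = 0.0102, lost under 2). Among 11 genes of sialic acid and ganglioside supply and removal B4galnt1, the synthase of complex gangliosides, rose by 1.10 ± 0.21 (adjusted p = 0.00629) and Npl, which breaks down sialic acid, by 1.004 ± 0.22 (adjusted p = 0.0159, lost under 4). In EKO they differed by -0.13 and 0.17.

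Of 32 neighbours on the chromosome, the nearest measured pair on each side of the 8 genes, 3 fell and 1 rose in WT, beside 2.3% and 3.19% of all genes. None passed in EKO. Beside Fam13a, Gprin3 rose by 0.73 ± 0.16 (adjusted p = 0.0146) and differed by 0.55 ± 0.14 in EKO (adjusted p = 0.563). Beside Adgrg2, Phka2, a subunit of the kinase that starts glycogen breakdown, fell by 0.68 ± 0.15 (adjusted p = 0.0177). Beside Dennd2d, Dram2 fell by 0.39 ± 0.079 (adjusted p = 0.0109).

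The neighbour that moved most was 2010016I18Rik, which was named after its values were seen. It starts 127 bases from the third of the Dennd2d starts, runs on the opposite strand, and the genes overlap by 3483 bases in the RefSeq models. Its levels were 9.56, 9.72 and 10.05 in WT on normal diet and 7.496, 7.57 and 7.16 on Western diet, groups that did not overlap. It fell by 2.37 ± 0.23 in WT (adjusted p = 6.61e-05), close to the -2.43 of Dennd2d. In EKO it was at 9.94, 10.63, 10.53 and 9.73 on normal diet and 9.43, 9.60, 8.97 and 9.54 on Western diet, with a difference of -0.83 ± 0.20 (adjusted p = 0.542) beside -0.81 for Dennd2d. Over the 14 arrays the levels of this pair correlated at 0.985. The stretch printed above is the DNA between their starts. Whether the probes of the pair keep their signals apart was not tested, so the values are uncertain as separate measurements. Acsm3 overlaps Eri2 by 1071 bases, and Eri2 differed by -0.41 in WT (adjusted p = 0.123). St6galnac5 overlaps Pigk by 23042 bases, and Pigk differed by 0.46 in WT (adjusted p = 0.155). Dennd2d also overlaps Cept1, by 771 bases, and Cept1 differed by -0.37 in WT (adjusted p = 0.0938).

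Likeness of pattern was taken as Pearson r over the 14 arrays with each gene outside the 8. Such an r mixes differences between groups with those inside them. Fam13a was most like Chst1 (0.966) and Acsm5 (0.965), and Slc43a1 most like Etfbkmt (0.946) and Acsm5 (0.938). Acsm3 was most like Slc22a23 (0.974) and Echdc3 (0.959), and Tst most like Inca1 (0.975) and Gpat4 (0.954). Dennd2d was most like Pde1a (0.977) and Ppm1l (0.975), once 2010016I18Rik is passed over, and Adgrg2 most like Car5b (0.971) and Pde1a (0.966). Rnf144b was most like Gpt2 (0.944) and Dhtkd1 (0.941), and St6galnac5 most like Cbx7 (0.949) and Sctr (0.941). Acsm5 and Pde1a each appeared for a pair of the 8 genes.

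The 8 genes also varied together among animals of one group. With the group means removed, the 28 pairs of genes had Pearson r of 0.39 to 0.94 over the 14 arrays, with a median of 0.62, and all 28 were above 0. The highest values were 0.94 for Fam13a with Slc43a1, 0.90 for Acsm3 with Tst and 0.87 for Slc43a1 with St6galnac5. The lowest, 0.39, were those of Adgrg2 with Acsm3 and with St6galnac5. Over all pairs of genes the median was 0.01, and the middle of the distribution, from percentile 5 to percentile 95, ran from -0.75 to 0.77. A value of 0.39 or more was found in 28.2% of all pairs, and one of 0.62 or more in 13.3%. The arrays share preparation, normalization and background, and the points carry the same animals for every pair, so these values are given as a description.

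**Figure D4:**
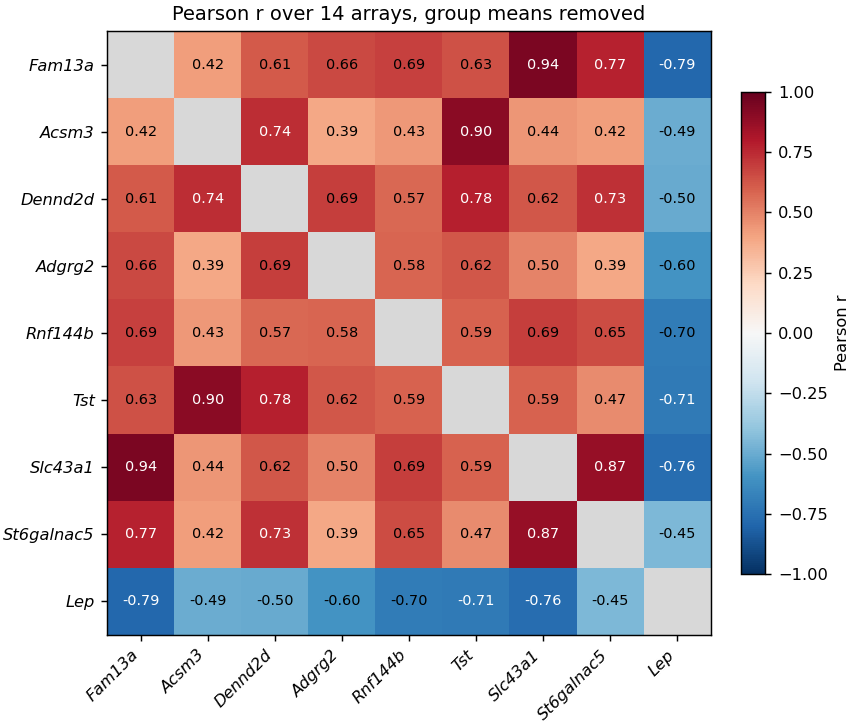
Pearson r between the levels of the 8 genes and Lep over 14 arrays after the mean of each group was removed; colour and number give r. All 28 pairs among the 8 genes are positive (0.39 to 0.94), and the 8 values with Lep, in the last row and column, are negative (-0.79 to -0.45).

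The shared variation was seen on some arrays more than on others. Replicate 4 of EKO on normal diet was below its group mean for 8 of 8 genes, and replicate 3 of that group was above it for all 8. Replicate 1 of WT on normal diet was below for 8 of 8, and replicate 3 of EKO on Western diet for 7 of 8. On Western diet replicate 3 of WT was below for 7 of 8. The genes were split on replicate 2 of WT and replicate 1 of EKO on that diet, with 5 of 8 below on each. Without the 4 EKO arrays on normal diet the 28 values ran from 0.0024 to 0.98, with a median of 0.48. When the split into brighter and dimmer background arrays was removed along with the group means, they ran from 0.35 to 0.96, with a median of 0.68.

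Lep, the gene of leptin, which white fat makes in proportion to its fat stores, was set beside them after its values were seen. Its levels were 12.72, 12.30 and 12.53 in WT on normal diet and 13.21, 13.47 and 13.31 on Western diet, and these did not overlap. In EKO they were 12.73, 11.78, 12.19 and 13.15 on normal diet and 11.72, 12.21, 12.48 and 12.32 on Western diet, and these overlapped. Lep passed in neither genotype (0.81 ± 0.27 in WT, adjusted p = 0.115, and -0.28 ± 0.24 in EKO, adjusted p = 0.946). Within groups it ran against the 8 genes, with r from -0.79 for Fam13a to -0.45 for St6galnac5 and a median of -0.65. A value of -0.45 or below was found for 16.4% of all genes. Without the 4 EKO arrays on normal diet, r was below 0 for 6 of the 8 genes, between -0.75 and 0.36, with a median of -0.44. In that setting 49.8% of all genes had an r below 0, and 79.2% were at or below the 0.36 of the highest of the 8. Within EKO on normal diet the array with the highest Lep, replicate 4, was low for all 8 genes, and the array with the lowest Lep, replicate 2, was high for 7 of 8.

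**Figure D5:**
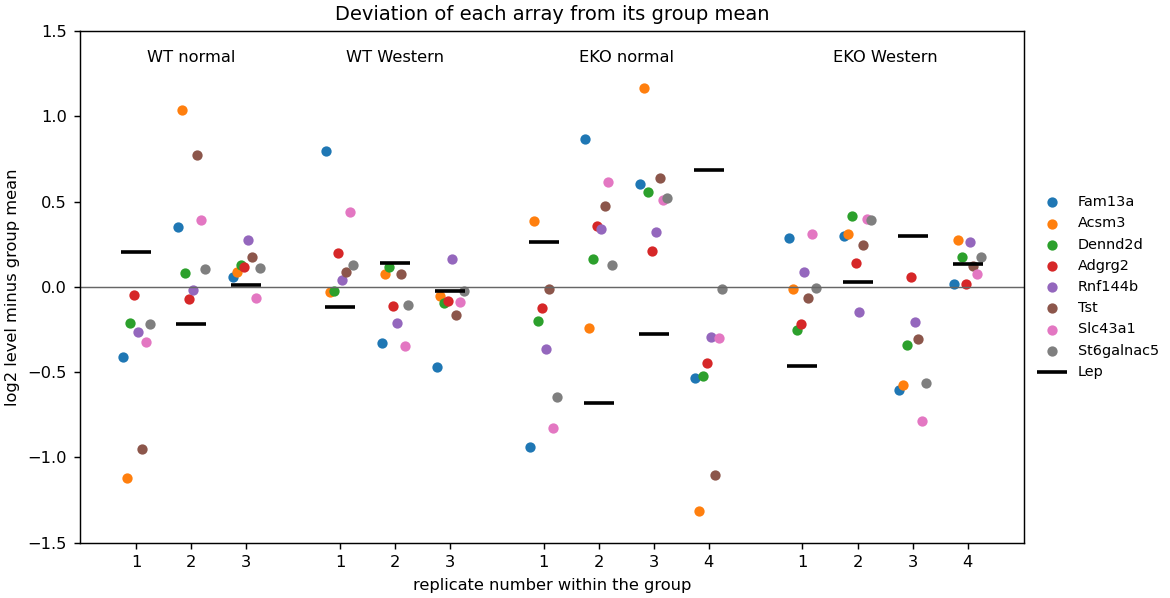
Level of the 8 genes (points) and of Lep (black lines) in each array minus the mean of its group (y axis, log2), by group and replicate number (x axis). The points of replicate 4 of EKO on normal diet all lie below 0 while its Lep lies above, and those of replicate 3 of the same group all lie above 0 while its Lep lies below.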

How the data were processed

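Total RNA of the epididymal fat pad from 14 mice was measured on Affymetrix arrays. The authors deposited log2 values per probe set. Per the submitters' processing notes these come from RMA, which includes quantile normalization; no version or settings are named. The deposited medians still ran from 7.92 to 8.10, and the sources do not say whether all 14 arrays were normalized together. The values ran from 4.21 to 14.5. Of 34760 rows, 21640 have 1 gene symbol in the platform annotation, 1321 have several and 11799 have none. Where a gene had several probe sets (954 genes), the one with the highest mean was kept.

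All 14 arrays were fitted together with 1 mean per group, using limma 3.58.1 (lmFit and eBayes, 10 residual degrees of freedom) under R 4.3.3. Values after ± are SE for differences and SD for group means. A gene passed at a two-sided Benjamini-Hochberg adjusted p under 0.05 over 19937 genes. The number of arrays limits the precision, and nothing beyond the labels shows how independent the animals of a group were, so p-values measure the spread between these samples.

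The 8 genes, the lists and the tests were chosen with earlier results of these data known, among them the EKO value of Rnf144b. All 8 are named. In each family list up to 3 other genes that passed in WT are named, by smallest p, or the nearest where none passed. Neighbours that passed are named, as are a few of the cell type markers that passed. For likeness the 2 genes outside the 8 most like each of them are named. Another family list is not reported here. Predicted genes were passed over in naming but counted. Alternatives left out each array, blocked on replicate number or background set, kept only the 9 dimmer-background arrays, centred or quantile normalized again, changed the prior, dropped the dimmest 25% of genes, averaged probe sets, or fitted 2 groups alone. Figures were drawn with matplotlib 3.10.9.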

Additional observations from a re-analysis of the deposited data

Results flagged for a closer look

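Sqor, which encodes the enzyme that begins sulfide oxidation in mitochondria and belongs to the list of Tst, differed between the genotypes in its diet effect. The diet difference was -1.01 in WT and -0.019 in EKO, and the test of the difference between them gave 0.99 ± 0.18 (SE), with an adjusted p of 0.0262 in the limma fit. All 3 WT arrays on Western diet lay below all 11 other arrays. The adjusted p was between 0.00258 and 0.0899 over 22 alternatives. No array stood apart from its group in the 16 sets of EKO values examined, 1 for each of the 8 genes on each diet. The check compared the gap beside an end value with the range of its set. With 4 values in a set it flags only extreme gaps, so it does not show that outliers are absent. The WT groups were not examined.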

How the results depend on the processing

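None of the 8 genes and none of the family genes passed for diet in EKO under any of 23 alternatives; for Rnf144b the adjusted p was 0.106 or more and the difference -1.14 to -0.85. In WT the 8 genes kept a negative difference in all 184 refits, 182 of them within 1 SD of the main value; in the 9 arrays of lower background Fam13a moved to -3.20 and Tst to -2.17. In EKO 177 of 184 refits kept their sign. Those that reversed were Fam13a without EKO replicate 1 (-0.18) or 4 (-0.046) on normal diet, Acsm3 without replicate 4 on normal diet (-0.10), and Slc43a1 without EKO replicate 2 (0.039) or 3 (0.0049) on normal diet, without replicate 3 on Western diet (0.097) or in the arrays of lower background (0.28). Leaving out single arrays gave -0.18 to 0.42 for Fam13a, -0.10 to 0.72 for Acsm3 and -0.44 to 0.097 for Slc43a1.

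Counts moved more. Leaving out single arrays gave 3 to 16 family genes higher in WT (main value 12), 4 to 10 lower (8) and 0 to 8 for the interaction (1). Over all genes it gave 252 to 1063 higher (636), 163 to 556 lower (458), 0 to 4 in EKO (0) and 37 to 499 for the interaction (96). The arrays of lower background gave 21 family genes higher, 15 lower and 11 for the interaction, and 1322, 830 and 566 over all genes. The background set as a block gave 13 family genes lower and 3 for the interaction, and 1063 higher, 944 lower and 320 for the interaction over all genes. Quantile normalization gave 3 family genes and 285 of all genes for the interaction, and 817 genes lower. The 2 WT groups alone gave 5 family genes in each direction, 292 genes higher and 187 lower, and no interaction. The cause was not tested. The higher share of WT calls was 58.1%, 70.2% without replicate 1 of WT on Western diet and 46.9% without replicate 1 of WT on normal diet.

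The labels tie no replicate number to a shared animal or batch, and not every pair passed 0.1: deviations of same-numbered arrays correlated at 0.458, 0.188 and 0.0089 between diets in WT and at 0.200, -0.594, -0.421 and 0.452 in EKO, and between genotypes at 0.162, -0.109 and 0.207 on normal diet, where replicate 4 has no WT partner, and at 0.644, 0.486 and -0.114 on Western diet. The numbers were not taken as pairs. The replicate block gave 1 gene for diet in EKO, and 159 of all genes and 2 family genes for the interaction. The correlation alternatives, chosen after seeing the data, moved the median r among the 8 genes to 0.48 and 0.68 and that with Lep to -0.44 and -0.76. Signal near background limits the WT differences of Acsm3, Dennd2d and St6galnac5.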
